A study of Mus musculus with 4 samples.

Results

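The 10 genes described here encode the enzymes and regulators with which the liver makes fatty acids from carbohydrate: Srebf1, Fasn, Acaca, Acacb, Acly, Scd1, Elovl5, Elovl6, Thrsp and Me1. They were taken by symbol from the 32285 gene features of the deposited tables, where all 10 were found. They were read in single-nucleus RNA-seq of non-tumor liver, in which transcripts are counted as unique molecular identifiers (UMIs) in nuclei captured in droplets. All mice were males that had received the liver carcinogen diethylnitrosamine (DEN), at 25 mg/kg, when 14 days old, and the tissue was taken at 12 months. There were 2 libraries labelled Brca1-KO and 2 labelled Brca1-WT, called biological replicates in the labels, which say neither how nor in which cells Brca1 was deleted, and no group without DEN was analysed here. With nothing further said of the mice, p-values by genotype measure the spread between these samples. Those of comparisons within libraries measure the spread left once each library's own level is removed.

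The libraries labelled Brca1-KO are called KO 1 and KO 2 here and those labelled Brca1-WT are called WT 1 and WT 2, with values in that order. Levels are counts per 1000000 UMIs (CPM) of the same library and kind of nucleus. Brca1 itself stood at 18.6 and 5.78 CPM in hepatocyte-like nuclei of KO 1 and KO 2, against 13.3 and 12.4 CPM in WT 1 and WT 2. KO 1 was thus above and KO 2 below both WT libraries, so the genotype is used as the labels give it.

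In the cytosol, citrate exported from mitochondria is cleaved to acetyl-CoA, which is carboxylated to malonyl-CoA and built into palmitate by fatty acid synthase with NADPH as the reductant. Palmitate is then elongated and desaturated, and insulin and glucose switch the genes on after feeding through the transcription factors SREBP-1c and ChREBP. Classical accounts of liver zonation place fatty acid synthesis towards the central vein and fatty acid oxidation towards the portal vein. The human BRCA1 protein is known to bind the phosphorylated form of acetyl-CoA carboxylase alpha, the product of ACACA.

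The members divide by role. Srebf1 encodes the precursor of SREBP-1, and Thrsp encodes Spot 14, a small protein that supports fatty acid synthesis. Acly encodes ATP citrate lyase, which makes cytosolic acetyl-CoA, and Me1 encodes malic enzyme, which supplies NADPH. Acaca and Acacb encode the acetyl-CoA carboxylases, of which the second sits at the mitochondrion, where its malonyl-CoA restrains fatty acid entry. Fasn encodes fatty acid synthase, Elovl6 elongates palmitate, Elovl5 elongates mainly polyunsaturated fatty acids, and Scd1 encodes stearoyl-CoA desaturase, which makes oleate. Srebf1 overlaps Rai1 on the other strand, and Acaca, Acacb, Elovl6 and Me1 overlap predicted or noncoding gene models there. The sources used here do not give the strand setting of the counting, so whether reads of such partners were counted is not settled. On the member's own strand, Acaca overlaps Gm37391, Elovl6 overlaps Gm43072 and Me1 overlaps Gm38230, while Srebf1 and Acly overlap microRNA genes. No strand setting would tell the reads of those from the member's.

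The bases just before the start of transcription are shown for the 3 members with the largest zone differences below, Acly, Thrsp and Elovl5, and for Me1, which did not pass the zone test. Each run holds the 250 bases before the RefSeq start (GRCm38.p6), read 5′ to 3′ on the gene's strand, and capitals mark matches on either strand. The letters searched were CCAAT for the CCAAT box. For the GC box they were GGGCGG. For the E-box they were CACGTG.
Acly promoter (chr11:100528001-100528250, minus strand): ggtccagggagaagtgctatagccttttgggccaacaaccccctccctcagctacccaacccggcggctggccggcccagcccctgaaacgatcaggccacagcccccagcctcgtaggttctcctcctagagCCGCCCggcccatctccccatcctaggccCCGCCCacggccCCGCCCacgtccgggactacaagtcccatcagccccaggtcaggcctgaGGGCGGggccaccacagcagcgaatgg
Thrsp promoter (chr7:97417551-97417800, minus strand): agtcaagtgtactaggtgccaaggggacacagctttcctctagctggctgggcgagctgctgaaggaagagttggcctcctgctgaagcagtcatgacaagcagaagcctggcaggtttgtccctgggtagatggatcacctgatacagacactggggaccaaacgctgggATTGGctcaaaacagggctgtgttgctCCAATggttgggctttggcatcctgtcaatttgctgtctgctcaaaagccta
Elovl5 promoter (chr9:77917115-77917364, plus strand): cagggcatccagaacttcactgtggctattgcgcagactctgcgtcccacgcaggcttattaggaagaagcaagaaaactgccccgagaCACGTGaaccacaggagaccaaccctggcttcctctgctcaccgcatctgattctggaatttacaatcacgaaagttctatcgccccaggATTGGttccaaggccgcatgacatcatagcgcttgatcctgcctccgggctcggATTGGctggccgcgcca
Me1 promoter (chr9:86695915-86696164, minus strand): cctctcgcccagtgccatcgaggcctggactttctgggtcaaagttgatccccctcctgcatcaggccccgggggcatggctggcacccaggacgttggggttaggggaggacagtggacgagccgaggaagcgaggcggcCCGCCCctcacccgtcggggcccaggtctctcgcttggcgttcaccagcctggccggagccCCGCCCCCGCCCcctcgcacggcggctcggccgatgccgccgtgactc
The Acly window held 4 GC boxes and the printed Me1 window 3, while the Thrsp and Elovl5 windows each held 2 CCAAT matches and Elovl5 also an E-box. At another start of Me1, the window held 1 CCAAT match and 0 GC boxes. The table had windows for 9 members, 12 windows in all because Srebf1 and Me1 have several starts. CCAAT was found in 7 of these 12 windows, from 6 members, the GC box in 4, from 3 members, and the E-box in 1. Among 32817 windows of all genes, 33.8% held CCAAT, 32.7% the GC box and 6.02% the E-box. An SREBP-site core, TCACNCCAC, was in 1.05% of all windows and in 0 of the members' windows. The matches printed do not overlap each other. A match describes the letters of the window, not a bound site.

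Hepatocyte-like nuclei, named from fixed markers such as Alb, numbered 2573 and 4090 in KO 1 and KO 2, against 2790 and 4019 in WT 1 and WT 2, with 29181315 and 38776867 UMIs against 29329584 and 29605546. KO 2 stood apart. Of its hepatocyte-like nuclei, 38.1%, 47.8% and 8.61% fell in clusters 7, 15 and 13, which held at most 1.87% of those of any other library. A cluster with Thsd4, Cyp2b9 and Gpc3, an oncofetal gene, among its leading genes held 0 nuclei of KO 1 and KO 2, against 150 and 22 of WT 1 and WT 2. The libraries shared at most 20 barcodes pairwise (0.292% of the smaller). None of the members was among the 2000 variable genes used for clustering.

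Most of the lipogenesis genes were lower near the central vein than near the portal vein. Hepatocyte-like nuclei were ranked in each library by 20 zonated genes, none of them a member, and split by rank into a perivenous, a middle and a periportal zone of equal numbers of nuclei. Other zonated genes, not in the score, were ordered as known in 24 of 24 library and gene pairs for perivenous genes and 23 of 24 for periportal genes. Their median ratio of perivenous to periportal level was 18.5 for the perivenous genes and 0.556, a smaller difference, for the periportal genes. A score from these other genes put 65.5% to 73.3% of a library's nuclei in the same zone. Of the 10 members, 8 were lower in the perivenous than in the periportal zone at an adjusted p below 0.05 (edgeR's quasi-likelihood test with the library as a block, Benjamini-Hochberg over all genes) and 0 were higher. Of 13018 genes tested outside the zone score, 16.8% were lower and 16.1% higher by the same rule. The members' median log2 difference, perivenous minus periportal, was −0.43, against 0.00 for all genes tested. All 8 were also lower in each of the 4 libraries, as were 22.3% of all genes. Without the cluster with Gpc3, 8 of 10 were called, and the differences given next were −1.01 for Elovl5, −0.83 for Elovl6, −0.36 for Fasn and −0.31 for Acaca. Median UMIs per nucleus were close between the perivenous and periportal zones except in KO 2, where they were 8783 and 6824, and the part of depth in that library was not tested beyond thinning.

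Acly, the source of cytosolic acetyl-CoA, had the steepest gradient of the members. It had 18.1, 17.3, 14.3 and 18.5 CPM in the perivenous zones of the KO 1, KO 2, WT 1 and WT 2 libraries, and 62.3, 67.6, 57.0 and 59.3 in their periportal zones. Every perivenous value was thus below every periportal one, at 0.251 to 0.313 of it within a library. The log2 difference was −1.86 (SE 0.10, adjusted p 8.36e-09). The middle zone lay between the others in all 4 libraries.

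Both elongases showed the same direction. Elovl5 had 49.6, 33.9, 84.0 and 84.6 CPM in the perivenous zones, in the same order of libraries, and 102, 70.6, 183 and 202 in the periportal zones. The perivenous level was 0.420 to 0.486 of the periportal one in each library, a log2 difference of −1.12 (SE 0.08, adjusted p 3.03e-07). Elovl6 had 30.3, 53.6, 78.7 and 42.7 CPM in the perivenous zones and 53.9, 80.4, 183 and 72.0 in the periportal zones. Its log2 difference was −0.86 (SE 0.14, adjusted p 0.00237). The perivenous value of WT 1 lay above the periportal values of KO 1 and WT 2, while each library was lower in its own perivenous zone.

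Thrsp was counted on few UMIs, with 1.14, 2.64, 6.18 and 2.58 CPM in the perivenous zones and 4.03, 2.69, 18.5 and 6.996 in the periportal zones. It was about equal in the zones of the KO 2 library, where its ratio was 0.983, and lower in the perivenous zones of the other libraries, at 0.282 to 0.368. The log2 difference over the 4 libraries was −1.24 (SE 0.22, adjusted p 0.000476), and −1.57 without KO 2. With nuclei thinned to 1000 UMIs it did not pass the filter on low counts and was not tested.

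Srebf1, Fasn and Acaca were lower in the perivenous zone by smaller amounts. Srebf1 had 10.4, 11.4, 14.0 and 13.7 CPM in the perivenous zones and 12.3, 14.5, 20.1 and 20.9 in the periportal zones, a log2 difference of −0.43 (SE 0.08, adjusted p 0.000688). Fasn, the gene of the synthase itself, had 9.51, 6.999, 11.8 and 9.22 in the perivenous zones and 13.4, 7.45, 17.9 and 12.9 in the periportal zones, a log2 difference of −0.43 (SE 0.12, adjusted p 0.0115). In Acaca the log2 difference was −0.38 (SE 0.08, adjusted p 0.00487), with 134, 165, 191 and 178 CPM against 158, 249.6, 278 and 197.

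Scd1 differed least among the members that passed, at −0.24 (SE 0.08, adjusted p 0.0333), and its perivenous level in KO 1 was 0.994 of the periportal one. The calls of Scd1 and Fasn were lost with DESeq2, with nuclei thinned to 1000 UMIs, and without either Brca1-WT library, and that of Scd1 also without KO 2 and without a filter on low counts. Acacb missed the threshold at −0.20 (SE 0.08, adjusted p 0.0709), and passed it without KO 2 at −0.28 (adjusted p 0.0108), with common cut points of the score at −0.25 (adjusted p 0.0277), with nuclei thinned to 1000 UMIs at −0.33 (adjusted p 0.00315) and with no filter on low counts at −0.19 (adjusted p 0.00236). Me1 had 167, 275, 102 and 156 CPM in the perivenous zones and 174, 180.0, 144 and 153 in the periportal zones. Its perivenous level was the higher one in KO 2, at 1.53 times the periportal level, and the lower one in WT 1, at 0.709, and the log2 difference was 0.04 (SE 0.17, adjusted p 0.883).

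**Figure D1:**
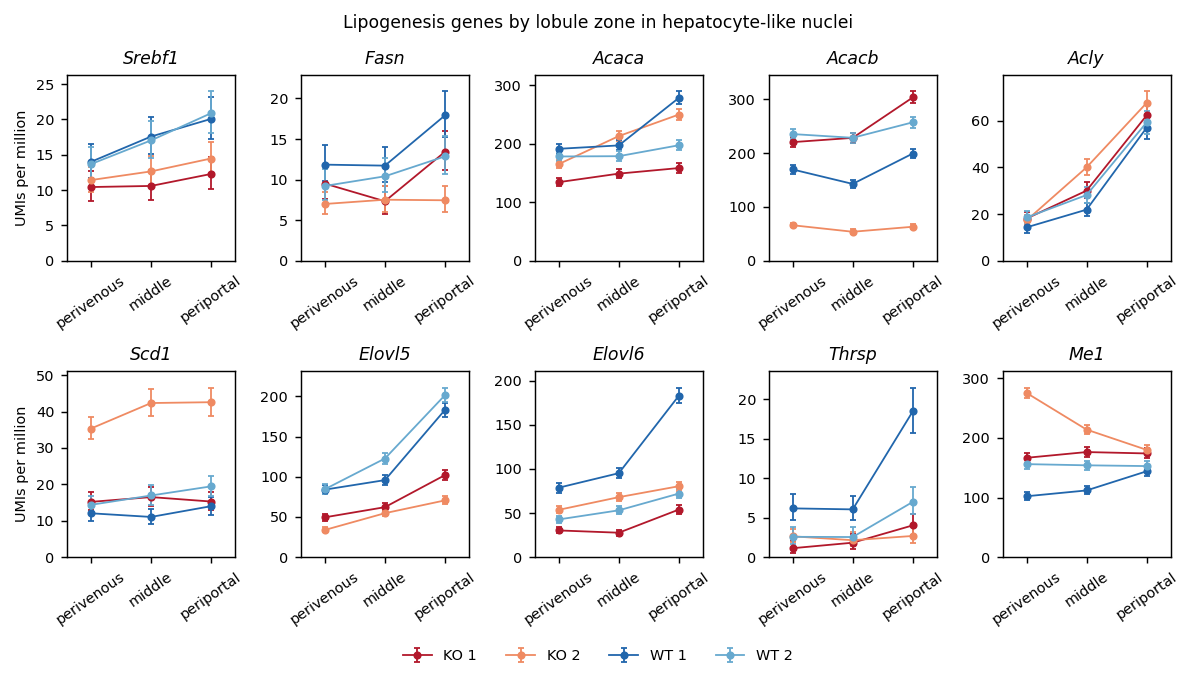
CPM (y axis, from 0) of each lipogenesis gene in the perivenous, middle and periportal zones of hepatocyte-like nuclei, with 1 line per library and bars for the 95% Poisson interval. Acly and Elovl5 climb towards the periportal zone in all 4 libraries, and Me1 in the KO 2 library goes the other way.

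By genotype, 0 of the 10 members passed the test in hepatocyte-like nuclei, as 0% of 15111 genes did (edgeR). By DESeq2, 0 members and 23 genes passed. At an unadjusted p below 0.05 there were 2 members, Elovl5 and Thrsp, and 496 genes (3.28%). Every member's adjusted p was 0.988 by edgeR. The members' median log2 difference, Brca1-KO minus Brca1-WT, was −0.41, against −0.01 over all genes. The members' median was −0.16 without WT 1 and −0.12 with nuclei thinned to 1000 UMIs. In 4 members (Srebf1, Fasn, Elovl5 and Thrsp) KO 1 and KO 2 were each below WT 1 and WT 2, as in 19.7% of all genes, and in 2 (Acly and Me1) both were above, as in 11.5%. In such summed levels, fewer cells of a kind and less RNA per cell cannot be told apart.

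Elovl5 differed most relative to its error. It had 71.3 and 51.3 CPM in KO 1 and KO 2, against 119 and 136 in WT 1 and WT 2, or 61.3 ± 14.1 against 128 ± 11.5 (SD, n = 2 each). The groups did not overlap, and the log2 difference was −1.01 (SE 0.21, unadjusted p 0.00475). The difference was −0.82 without KO 2, and −0.89 without the cluster with Gpc3. The same side was seen in every zone: perivenous values were 49.6 and 33.9 against 84.0 and 84.6, middle values 62.2 and 54.7 against 95.9 and 123, and periportal values 102 and 70.6 against 183 and 202.

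Thrsp, a gene known for its strong response to carbohydrate feeding, had 2.33 and 2.502 CPM in KO 1 and KO 2, against 9.99 and 4.02 in WT 1 and WT 2. Both knockout values lay below both Brca1-WT values, with WT 1 far above the rest. The log2 difference was −1.48 (SE 0.49, unadjusted p 0.0294), and −0.68 without WT 1. Srebf1, the regulator, had 11.1 and 12.7 CPM in KO 1 and KO 2, against 17.2 and 17.2 in WT 1 and WT 2, with a log2 difference of −0.47 (SE 0.20, unadjusted p 0.0648). Fasn had 10.1 and 7.30 against 13.7 and 10.8, and −0.45 (SE 0.25, unadjusted p 0.134). For Fasn the KO 1 and WT 2 libraries lay within each other's Poisson intervals. Without the cluster with Gpc3 the differences were −0.43 for Srebf1 and −0.35 for Fasn. With nuclei thinned to 1000 UMIs they were −0.12 for Srebf1, −0.06 for Fasn and −0.82 for Thrsp.

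Me1, which supplies NADPH, had 172 and 228 CPM in KO 1 and KO 2, against 119 and 154 in WT 1 and WT 2. Both knockout values were above both Brca1-WT values, with a log2 difference of 0.61 (SE 0.26, unadjusted p 0.0673), and 0.35 without KO 2. Acly had 36.8 and 39.4 against 30.4 and 35.1, and 0.27 (SE 0.18, unadjusted p 0.203).

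In Acacb, Scd1 and Elovl6 a single library stood apart. Acacb had 251 and 61.4 CPM in KO 1 and KO 2, against 169 and 240.3 in WT 1 and WT 2, so that KO 2 alone was low. Its log2 difference was −0.37 (SE 0.64), −1.64 without KO 1 and 0.31 without KO 2. Scd1 had 15.7 and 39.7 against 12.3 and 16.9, so that KO 2 alone was high, and its log2 difference was 0.99 (SE 0.50), or 0.12 without KO 2. Elovl6 had 37.2 and 66.0 against 117 and 55.8, so that WT 1 alone was high. Its log2 difference was −0.68 (SE 0.47), or −0.05 without WT 1, −1.19 without KO 2 and −0.62 without the cluster with Gpc3. Acaca had 147 and 205 against 221 and 185, overlapping between the groups, and a log2 difference of −0.14 (SE 0.26), or 0.12 without KO 1 and −0.06 without the cluster with Gpc3.

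**Figure D2:**
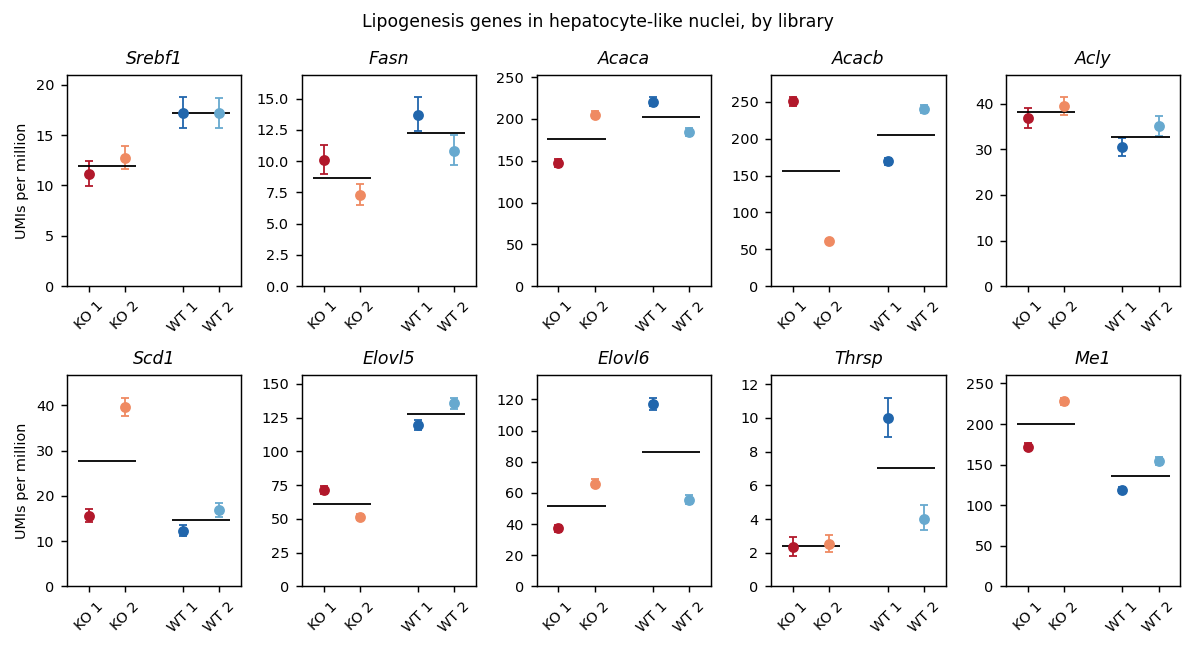
CPM (y axis, from 0) of each lipogenesis gene in hepatocyte-like nuclei of the 2 libraries labelled Brca1-KO and the 2 Brca1-WT libraries, with 95% Poisson intervals and the mean of each group as a line. Both Brca1-KO points of Elovl5 (71.3 and 51.3) lie below both Brca1-WT points (119 and 136), and KO 2 stands apart in Acacb and Scd1.

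Summed over the 10 members, the level was 755 and 713 CPM in KO 1 and KO 2, against 829 and 854 in WT 1 and WT 2. The groups did not overlap, and the difference of means was −108 (2-sided exact permutation test, p = 0.333, the smallest that 2 against 2 allows). Without the cluster with Gpc3 it was −77.9, and with TMM-scaled CPM it was −65.5. The sum gives most weight to the members with the highest levels and does not describe each member. Mean levels were 61.3 in Brca1-KO against 128 CPM in Brca1-WT for Elovl5, and 51.6 against 86.5 for Elovl6, where WT 1 alone was high. Those of Me1 (200 against 137), Scd1 and Acly went the other way.

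Genes known to be raised by fasting, and clock genes, were read beside the members. The median of 13 genes raised by fasting, on a log2 scale relative to the mean of the 4 libraries, was −0.05 and −0.86 in KO 1 and KO 2, against 0.63 and 0.32 in WT 1 and WT 2. For the 10 members it was −0.28 and −0.05 against 0.24 and −0.01. For 16 clock genes it was 0.09 and 0.01 against −0.25 and 0.11. Clock genes peak at different hours, so their median cannot show a difference in the hour. Singly, Arntl had 74.4 and 14.4 CPM in KO 1 and KO 2, against 42.1 and 54.1 in WT 1 and WT 2. Nr1d1 had 24.5 and 42.2 against 19.6 and 14.4, and Per3 78.9 and 89.4 against 75.6 and 108. KO 2 was the lowest library for Arntl and the highest for Nr1d1, and lay between others for Per3. The labels give neither the feeding state nor the hour of killing, and the part of either in the members' levels was not tested.

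No member had a zone difference that depended on genotype by the test: 0 of 10 passed for the interaction (edgeR), as 0% of 13018 genes did, with 622 genes (4.78%) and 0 members at an unadjusted p below 0.05. The members' log2 interactions ran from −0.07 in Acaca to 0.81 in Thrsp, and those of Srebf1, Acaca, Acacb, Acly, Scd1, Elovl5 and Thrsp changed sign under at least 1 alternative. Thrsp had the smallest p (0.0771, SE 0.42, adjusted p 0.980), and its interaction was −0.29 without KO 2. In Me1 the interaction was 0.52 (SE 0.30, adjusted p 0.985). Its perivenous levels of 167 and 275 CPM in KO 1 and KO 2, against 102 and 156 in WT 1 and WT 2, were farther apart than its periportal levels of 174 and 180.0 against 144 and 153.

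The clusters of hepatocyte-like nuclei differed widely in the members, here as a description, since the clusters were formed from the same nuclei. The cluster with Gpc3 drew on the Brca1-WT libraries alone, so its levels are compared within each. Within the WT 1 library, its 150 nuclei had 598 CPM of Elovl5, against 98.3 in the other hepatocyte-like nuclei, 734 against 198 of Acaca, 51.7 against 12.0 of Fasn and 291 against 109.5 of Elovl6. The ratios were 6.08, 3.71, 4.29 and 2.66. Me1 went the other way, with 83.9 against 120.3. In the 22 nuclei of WT 2 the ratios were 1.65 for Elovl5, 2.49 for Acaca, 3.13 for Fasn and 3.34 for Elovl6, on 40, 82, 6 and 33 UMIs, while Me1 had 11.1 CPM against 155, on 2 UMIs, and Scd1 and Thrsp had 0 UMIs. Srebf1, the regulator, was at 2.66 and 1.299 times the level of the other hepatocyte-like nuclei.

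Clusters 7, 13 and 15, which held most of the hepatocyte-like nuclei of KO 2, had 62.1, 79.9 and 66.8 CPM of Acacb, against 196 to 256 in clusters 2, 3, 4 and 6. They had 34.0, 31.3 and 44.1 of Scd1, against 11.8 to 15.6 in clusters 2, 3 and 4. Cluster 6, led by mitochondrially encoded transcripts, had 48.4 of Scd1 and drew on all 4 libraries. Without cluster 6 the genotype difference of Scd1 was 1.06.

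**Figure D3:**
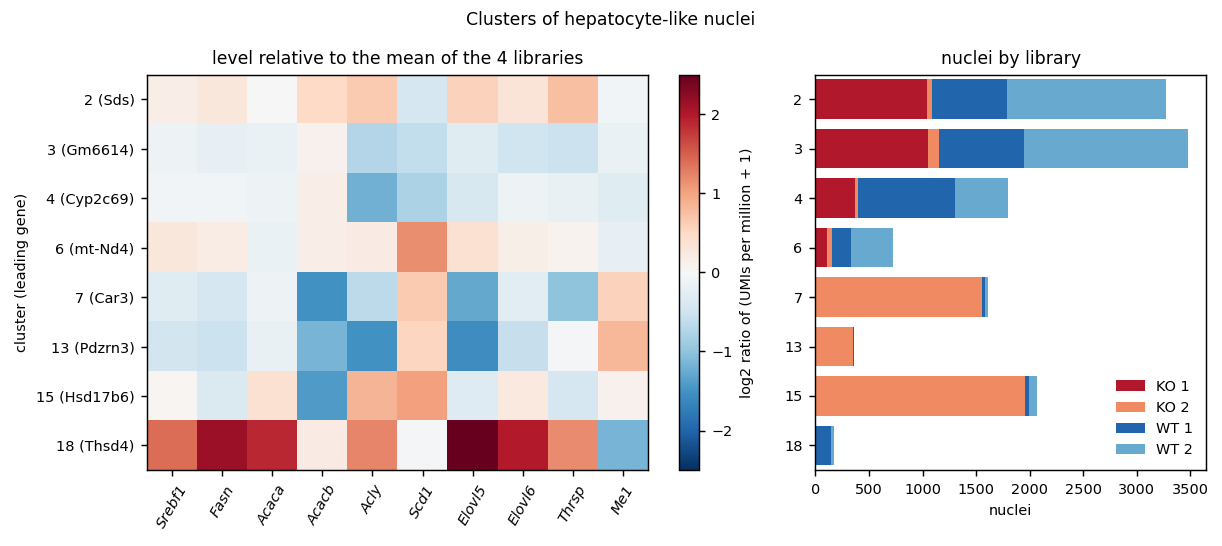
Left, log2 ratio of each lipogenesis gene's CPM plus 1 in each cluster of hepatocyte-like nuclei to the mean of the 4 libraries (colour, red above and blue below); right, the number of nuclei in each cluster by library. Cluster 18, which holds Gpc3 among its leading genes, is red for Fasn, Acaca, Elovl5 and Elovl6 and has nuclei of the Brca1-WT libraries alone, while clusters 7, 13 and 15 are nearly all KO 2.

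Outside hepatocytes the members differed in how their level compared with that of genes that only hepatocytes make. Free RNA from broken hepatocytes can reach every droplet, so each member's ratio of other class to hepatocyte-like nuclei was set beside that of 10 such hepatocyte-restricted genes, among them Alb and Ttr. Of these, Alb, Apoa1, Apoa2, Apob, Serpina1a, Ttr and Cyp3a11 were also markers used to name the hepatocyte-like clusters, while Fgb, Fga and Mug1 were not. Their ratios are thus not independent of the naming of the classes, and the part of this was not tested. The median ratio of those 10 genes was 0.344 to 0.628 over the libraries in endothelial-like nuclei and 0.247 to 0.285 in stellate and mesenchymal-like nuclei. It was 0.329 to 0.464 in macrophage-like, 0.291 to 0.383 in monocyte and dendritic-like, 0.577 to 0.727 in B-like and 0.455 to 0.586 in T and NK-like nuclei. Median UMIs per nucleus were 5948 to 9513 in hepatocyte-like nuclei and 1255 to 1850 in endothelial-like nuclei.

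Acacb and Me1 were higher in hepatocyte-like nuclei than in each of the 6 other classes (edgeR with the library as a block). Against endothelial-like nuclei, where 9 of 10 members and 66% of 14778 genes passed, the log2 differences were 1.84 for Acacb (SE 0.15, adjusted p 1.85e-06) and 2.35 for Me1 (SE 0.19, adjusted p 1.47e-06). In endothelial-like, macrophage-like, B-like and T and NK-like nuclei both genes lay below the median ratio of the hepatocyte-restricted genes in all 4 libraries. In stellate and mesenchymal-like nuclei, Me1 was above that median in all 4 libraries, at 0.444 to 0.888, and Acacb in 2 of 4. In monocyte and dendritic-like nuclei Me1 was above it in 2 of 4 and Acacb in 1 of 4. In endothelial-like nuclei the ratios of single restricted genes ran from 0.181 to 1.68. No profile of empty droplets was analysed here, and the part of free RNA in the members' counts was not tested. Elovl6 was higher in hepatocyte-like than in endothelial-like (1.85), macrophage-like (2.54), stellate and mesenchymal-like (2.63) and B-like nuclei (1.35), in log2. It was below that median in all 4 libraries in endothelial-like and in stellate and mesenchymal-like nuclei.

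Scd1 was lower in hepatocyte-like nuclei than in several other classes. It had 15.7, 39.7, 12.3 and 16.9 CPM in hepatocyte-like nuclei of KO 1, KO 2, WT 1 and WT 2, against 25.7, 164, 38.8 and 23.9 in endothelial-like nuclei. The hepatocyte-like value was the lower one in every library, and the log2 difference was −1.14 (SE 0.24, adjusted p 0.00152). The difference was −0.995 against macrophage-like (37.2, 112, 40.3 and 19.5 CPM), −1.89 against B-like (62.6, 131, 101 and 68.7 CPM) and −0.57 against stellate and mesenchymal-like nuclei (21.0, 62.4, 28.3 and 18.8 CPM), all past the threshold. The last of these was lost without WT 1 (−0.40, adjusted p 0.0803). In these 4 classes its ratio was above that of every hepatocyte-restricted gene in all 4 libraries. The same held in monocyte and dendritic-like nuclei, on 3, 11, 4 and 2 UMIs and with a log2 difference of −0.33 that missed the threshold (adjusted p 0.567). KO 2 was the highest library for Scd1 in every named class tested, hepatocyte-like nuclei among them. The part of free RNA in the Scd1 levels of the other classes was not tested.

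In stellate and mesenchymal-like nuclei, Acaca and Srebf1 were also above every hepatocyte-restricted gene in all 4 libraries. Acaca had 147, 205, 221 and 185 CPM in hepatocyte-like nuclei, against 230.4, 212, 261 and 257 in stellate and mesenchymal-like nuclei, lower in each library. The log2 difference was −0.29 (SE 0.13, adjusted p 0.0552) and missed the threshold. Against endothelial-like and macrophage-like nuclei Acaca was higher in hepatocyte-like nuclei, by 1.298 and 1.53 in log2. In monocyte and dendritic-like nuclei Elovl5 stood above every hepatocyte-restricted gene in all 4 libraries, with a log2 difference of −0.34 that missed the threshold (adjusted p 0.227). Thrsp was lower in hepatocyte-like than in endothelial-like nuclei by 0.96 in log2 (adjusted p 0.0364), on 26, 3, 41 and 22 endothelial UMIs. That call was lost with DESeq2 (adjusted p 0.0615), without KO 1 (adjusted p 0.206, difference −0.45) and without WT 2. In monocyte and dendritic-like nuclei Thrsp had 0 UMIs in each library, which allows up to 15.5 to 30.7 CPM by library, above its level in hepatocyte-like nuclei.

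Across the 6 classes, 36 of 60 member and class pairs passed, among them Thrsp against monocyte and dendritic-like nuclei, which rests on the 0 UMIs above and is given no fold. Besides the endothelial comparison, the members that passed numbered 8 against macrophage-like nuclei (60.2% of all genes), 7 against stellate and mesenchymal-like (63.5%), 5 against B-like (37.3%), 4 against monocyte and dendritic-like (42.3%) and 3 against T and NK-like nuclei (48.2%).

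**Figure D4:**
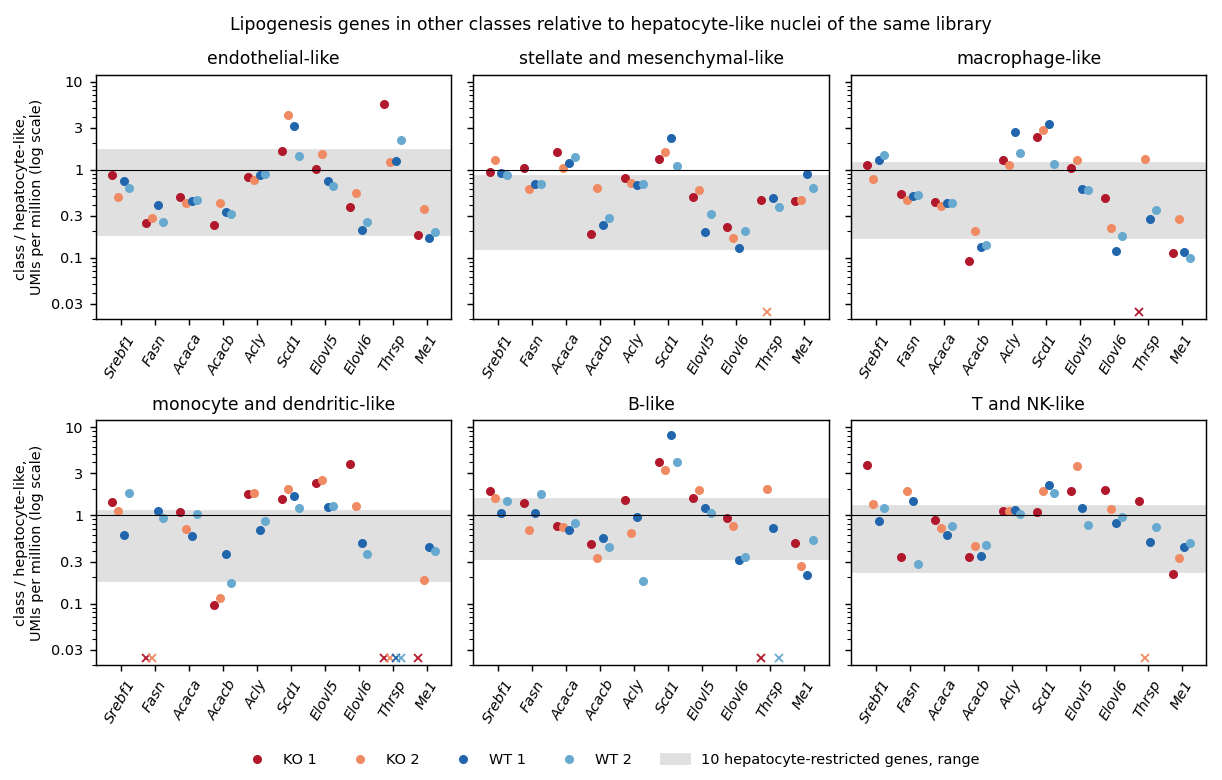
Ratio of each lipogenesis gene's CPM in 6 other classes to that in hepatocyte-like nuclei of the same library (log scale; crosses at the bottom mark 0 UMIs), with the range of 10 hepatocyte-restricted genes over the libraries in grey. Scd1 lies above 1 in every class, as in KO 2 with 39.7 CPM in hepatocyte-like and 164 in endothelial-like nuclei, and Acacb and Me1 lie mostly inside or below the grey band.

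By genotype, 0 members passed in any other class or over all nuclei (edgeR), as 0% of the genes tested did in each, from 3373 genes in monocyte and dendritic-like to 17145 over all nuclei. At an unadjusted p below 0.05 there were 3 members and 4.34% of genes in macrophage-like nuclei, 1 member and 3.68% in monocyte and dendritic-like nuclei, and 3 members and 4.58% over all nuclei. There were 0 members in B-like (7.56% of genes), T and NK-like (2.73%), endothelial-like (2.41%) and stellate and mesenchymal-like nuclei (3.95%). In macrophage-like nuclei Me1 had 19.5 and 62.2 CPM in KO 1 and KO 2, against 13.9 and 15.3 in WT 1 and WT 2, a log2 difference of 1.62 (SE 0.59, unadjusted p 0.0270, adjusted p 0.957). The knockout values were both above, with KO 2 far above the rest, and the difference was 0.45 without KO 2. These Me1 values lay below the median ratio of the hepatocyte-restricted genes in all 4 libraries, and KO 2 was also the highest library for Me1 in hepatocyte-like nuclei (228 CPM) and for that median ratio in macrophage-like nuclei (0.464). The part of free RNA in this difference was not tested. Macrophage-like Scd1 had 37.2 and 112 against 40.3 and 19.5, with KO 1 between the Brca1-WT libraries and a difference of 1.44, or 0.35 without KO 2. Without KO 1, Scd1 and Me1 passed in several classes, where KO 2 is then the sole library labelled Brca1-KO. Macrophage-like Srebf1 had 12.4 and 10.0 against 22.3 and 25.0, on 7 and 9 UMIs against 16 and 18, a log2 difference of −1.02 (unadjusted p 0.0436). In monocyte and dendritic-like nuclei Elovl6 had 144 and 85.5 against 56.9 and 20.4, on 18 and 12 UMIs against 11 and 2, a log2 difference of 1.43 (unadjusted p 0.0385, adjusted p 0.996). Over all nuclei the log2 differences were −0.83 for Elovl5, −1.25 for Thrsp and 0.75 for Me1, at unadjusted p of 0.00781, 0.0372 and 0.0483. In endothelial-like nuclei Elovl5 had 72.0 and 77.1 CPM in KO 1 and KO 2, against 88.6 and 89.4 CPM in WT 1 and WT 2. The difference between classes in the genotype effect was not tested.

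Of 4 lists of further genes of the pathway, 0 genes passed by genotype in hepatocyte-like nuclei (edgeR). The median log2 differences, Brca1-KO minus Brca1-WT, were 0.11 over 22 regulators, −0.04 over 17 genes that supply acetyl-CoA, citrate and NADPH, −0.04 over 14 elongation and desaturation genes and −0.26 over 15 genes of triglyceride assembly and export. The genes named next are among those with the smallest p by genotype in each list. Among the regulators, Insig2, which holds the SREBP precursor in the endoplasmic reticulum, had 211 and 129 CPM in KO 1 and KO 2, against 489 and 261 in WT 1 and WT 2, and a log2 difference of −1.10 (SE 0.39, unadjusted p 0.0381). Its groups did not overlap. Irs1, an insulin receptor substrate, had 142.9 and 213 CPM in KO 1 and KO 2, against 119.9 and 137 in WT 1 and WT 2, and Prkaa2, a catalytic subunit of AMP-activated kinase, had 137 and 216 against 128 and 127. Both were at 0.53, with KO 2 well above the other libraries.

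In the supply list Idh1, which makes NADPH, was at 0.28 and Mdh1, cytosolic malate dehydrogenase, which interconverts malate and oxaloacetate, at 0.15. In the elongation list Fads6 was at 0.37, Elovl3 at −0.89 and Acsl1, which activates fatty acids, at −0.41. In the assembly list Plin2, a lipid droplet coat protein, had 56.7 and 100.4 against 208 and 95.3 and was at −0.88 (unadjusted p 0.125), Tm6sf2 was at −0.61 and Mttp, which loads lipid onto apolipoprotein B, at −0.21.

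By zone, 3 regulators were higher and 7 lower in the perivenous zone, of 22 tested. The supply list had 5 higher and 4 lower of 15, the elongation list 2 higher and 6 lower of 14, and the assembly list 2 higher and 7 lower of 14, where 16.1% of all genes tested were higher and 16.8% lower. Pparg, a lipogenic nuclear receptor, had 53.2, 138, 85.1 and 65.2 CPM in the perivenous zones of KO 1, KO 2, WT 1 and WT 2, and 1.03, 4.33, 2.39 and 1.13 in the periportal zones. It was nearly restricted to the perivenous side in every library, with a log2 difference of 5.25 (SE 0.16, adjusted p 5.09e-10). Ppargc1b, a coactivator of SREBP-1, was lower in the perivenous zone by 1.04 in log2 (adjusted p 4.87e-11), with 219, 110.3, 98.0 and 229 against 426, 255, 189 and 471. Acss2, which makes acetyl-CoA from acetate, was higher in the perivenous zone by 0.43, opposite in sign to Acly. Acsl1 (−0.57) and Apob (−0.31) were lower there, and Hacd3 (0.44) and Lpin2 (0.63) were higher.

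Over the 12 sums of library and zone, the genes most like Fasn among 4773 well-counted genes were Atp13a1, Qsox1, Slc25a30, Tia1 and Arf3 (Pearson r of log2 levels 0.893 to 0.904). Those most like Me1 were Sppl3, Ptges3, Atp6v0b, Ddx46 and Atf1 (0.922 to 0.966), and among those most like Elovl5 were Frmd4b, Aldh9a1, Acsl5 and Trim2 (0.916 to 0.952). The sums share libraries and depth, and the values are descriptions. Bhmt, the gene in the title of the series, had 726 and 272 CPM in KO 1 and KO 2, against 1925 and 1210 in WT 1 and WT 2.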

How the data were processed

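Nuclei of 4 liver libraries were profiled with the 10x Genomics single-nucleus 3′ assay. The deposited tables hold UMI counts for each gene in each barcode; per the file headers, Cell Ranger 6.0.0 made them. The submitters' processing notes name GRCh38, a human build, while the gene identifiers are mouse, so the sources used here do not settle the build of the counts. The libraries held 5209 and 6708 barcodes (Brca1-KO), against 6841 and 7833 (Brca1-WT), with 36662067 and 45076257 UMIs against 45638888 and 40077856.

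Nuclei with at least 500 genes and at most 5% mitochondrial UMIs were kept, and Scrublet, through scanpy 1.11.5, removed 5.01% and 2.99% as doublets, against 11.3% and 7.33%. The rest were clustered (Leiden, resolution 1, 30 components, 15 neighbours, 20 clusters, members left out of the 2000 variable genes), and clusters were named "-like" from fixed markers. UMIs were summed per library and class or zone. The tests were edgeR 4.0.16 quasi-likelihood fits (TMM, filterByExpr) over all genes, called at a Benjamini-Hochberg adjusted p below 0.05, with R 4.3.3. The zone and class tests had the library as a block. Classes needed at least 30 nuclei in every library, and a small cholangiocyte-like class was not tested. Intervals on levels are exact Poisson 95% intervals, and the limit for a count of 0 is 3 counts per library; both cover counting error only. The genotype test in hepatocyte-like nuclei and the zone test were tried on simulated counts with large changes set in advance. In these no library was set apart, so the trial does not measure power or error in the present data.

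The alternatives were DESeq2 1.42.0, its size factors in edgeR, no filter on low counts, a replicate block, doublets kept, nuclei thinned to 1000 UMIs, other zone cuts and scores, and leaving out each library. Clustering with the members allowed among the variable genes chose none of them and gave the same clusters, so it tests nothing. Leaving out the cluster with Gpc3 from the zone results and the summed level, and the cluster led by mitochondrial transcripts, was chosen after seeing the data. The members and lists were chosen with earlier results of these data known. All 10 members are reported. Further pathway genes are the 3 a list with the smallest genotype p and the 2 with the smallest zone p, among genes with a mean log2 CPM of at least 3. The 5 genes most like Fasn, Me1 and Elovl5 were ranked by Pearson correlation. Some genes that these rules name are not reported here. Promoter windows are from RefSeq, GRCm38.p6, and the figures were drawn with matplotlib 3.10.9.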

Additional observations from a re-analysis of the deposited data

Results flagged for a closer look

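For Acly and Elovl6 the libraries labelled Brca1-KO lay on opposite sides of the Brca1-WT libraries in different classes, and these differences between classes were not tested. Acly, which makes cytosolic acetyl-CoA, was higher in KO 1 and in KO 2 than in either WT library in hepatocyte-like nuclei (ratio of means, Brca1-KO over Brca1-WT, 1.16), in T and NK-like nuclei (1.21) and in stellate and mesenchymal-like nuclei (1.28). In macrophage-like nuclei it was below, at 0.677, with 47.8 and 44.4 CPM in KO 1 and KO 2, against 82.1 and 54.2 CPM in WT 1 and WT 2, on 27 and 40 UMIs against 59 and 39. Elovl6, which elongates palmitate, was above in macrophage-like nuclei (1.36) and below in stellate and mesenchymal-like nuclei (0.744), on 7 to 19 UMIs per library in these classes. Elovl6 was below the median ratio of the hepatocyte-restricted genes in all 4 libraries in stellate and mesenchymal-like nuclei and in 3 of 4 in macrophage-like nuclei, and the part of free RNA was not tested. Acly rested on 51 UMIs in all in T and NK-like nuclei and on 123 in stellate and mesenchymal-like nuclei. None of these genotype differences passed the edgeR test. The share of all genes on such a side was counted in hepatocyte-like nuclei alone, at 11.5% above and 19.7% below. Whether members lay on such sides more often than other genes in the other classes was not tested.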

How the results depend on the processing

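The count of members called by genotype in hepatocyte-like nuclei was 0 under all alternatives run that could change it, and that of the interaction likewise. The members lower in the perivenous zone numbered 6 to 9 of 10 over the alternatives, or 6 of the 9 tested with nuclei thinned to 1000 UMIs, where Thrsp did not pass the filter, and Acly, Elovl5, Elovl6, Srebf1 and Acaca passed in each. The pairs called between classes numbered 30 to 38. Over the other classes and all nuclei the count by genotype was 0, but 1 with no filter on low counts (Scd1 in macrophage-like nuclei, adjusted p 0.0279) and 0 to 6 when each library was left out, the 6 arising without Brca1-KO replicate 1 (5 in the other classes and Scd1 over all nuclei); the lone remaining library is then assumed to vary like the others. Leaving out each library turned the sign of the genotype difference of Acaca (−0.44 to 0.12, positive without Brca1-KO replicate 1) and of Acacb (−1.64 to 0.31, positive without Brca1-KO replicate 2), of the zone difference of Me1 (−0.17 to 0.22, negative without Brca1-KO replicate 2), and of the interactions of Thrsp (−0.29 to 1.53), Acaca (−0.28 to 0.14), Acacb (−0.29 to 0.27) and Acly (−0.22 to 0.13). Interactions also turned with thinned nuclei (Srebf1 −0.41, Acaca 0.092, Acly 0.095, Scd1 −0.15), with common cut points (Acacb 0.057), with the score from the check genes (Acacb 0.023, Acly 0.012) and without the cluster with Gpc3 (Elovl5 −0.068). The cause was not tested. All genes called by genotype numbered 0 with edgeR, 23 with DESeq2, 2 with no filter and 30 without Brca1-KO replicate 1. The labels do not say that the replicate numbers pair the libraries. Across genes, the difference of KO 1 and KO 2 had r = −0.08 with that of WT 1 and WT 2. With a single such pair of differences, and KO 2 apart from the rest, this cannot settle pairing. With a replicate block 0 members were called, with Elovl5 at −1.02. With 2 libraries a group, the summed level cannot reach a p below 0.333, and Thrsp, Fasn and Srebf1 rest on few UMIs per nucleus.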
